A study of Mus musculus with 6 samples.

Results

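The Zfp genes encode zinc finger proteins, and 284 of the 16671 genes in the deposited table were studied here. They are the genes whose symbol starts with Zfp followed by a digit, without Zfp423, and whose mean normalised read count over all 6 libraries was at least 100. The table holds 370 such Zfp genes at any level, of which 86 fell under that mean. The members were thus chosen by their level over both groups, which is given only as a description. Just inside the limit were Zfp54, with a mean of 101, and Zfp442, with 102. Just outside it were Zfp940 and Zfp112, both with a mean of 99.1. Because a mean over both groups can be reached through 1 group, 14 members had a control mean under 100 and a C1q mean of at least 100, and no member had the reverse.

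RNA was sequenced from fibro-adipogenic progenitors (FAPs), which are stromal cells found between muscle fibres and which had been sorted by flow cytometry from hindlimb muscle of wild-type mice aged 4 to 5 months. One group of 3 libraries received vehicle and the other group of 3 received C1q, the recognition protein of the classical complement pathway, at 100 µg/ml. Each library started from 10 ng of total RNA, amplified with a low-input cDNA kit. The cell type label reads FAPs, whereas the extraction text speaks of MuSCs, and the labels give neither the length of treatment nor whether libraries came from separate mice. The reads on genes of the table ranged from 5379209 in control replicate 3 to 38861152 in control replicate 1, and the C1q libraries had 24046020 to 31929119. The median member had 68.5 reads in control replicate 3 and 349.5 to 497.5 reads in the other libraries, the lowest single value was 13 reads, and no member was at 0 in any library.

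The FAP markers, 8 of 8 in the table, summed to 358059 to 484675 normalised reads in the controls and 640126 to 822029 with C1q. Most of these reads were of Col1a1 and Col3a1, with 144213 and 168606 of the 358059 in control replicate 1. Of the 8 markers 5 rose, and Col3a1 (log2 fold change 0.68), Ly6a (0.15) and Cd34 (0.20) were not called. Markers of other cells also differed between the libraries. The 6 muscle fibre markers summed to 74212, 41063 and 18866 in control replicates 1, 2 and 3 against 11502 to 17906 with C1q, and 3 of them fell. The 6 myoblast markers summed to 7008, 3795 and 2270 in the controls against 1600 to 1919 with C1q, and 4 of them fell, while Pax7, which defines quiescent muscle stem cells, was at or near 0 in every library (0 to 7.58 in control replicates 3 and 1). The 3 tenocyte markers summed to 689 to 1016 and 1730 to 3071, of which Tnmd rose (log2 fold change 2.61), Scx fell (-1.21) and Mkx was not called (0.84). The 3 immune markers of 5 that are in the table summed to 29.8 to 55.4 and 11.3 to 70.2. The part of these cells in the results on Zfp genes was not tested, and in bulk RNA fewer cells of a type and less RNA per cell cannot be told apart.

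Most Zfp proteins carry tandem C2H2 zinc fingers, in which a pair of cysteines and a pair of histidines hold a zinc ion and a short helix reads DNA bases. Many of them begin with a KRAB domain, which recruits the co-repressor KAP1 (Trim28) and through it histone methyltransferases and heterochromatin proteins, and these KRAB proteins are known for silencing transposable elements and protecting imprints. A smaller group, Zfp36, Zfp36l1 and Zfp36l2, has CCCH fingers that bind AU-rich elements of mRNAs and speed their decay. In mesenchymal cells Zfp521 and Zfp467 are known as regulators of the choice between bone and fat.

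The kinds of finger and domain that divide the members can be read in their coding sequences, taken from the GRCm38 reference. The first CCCH finger of the RNA-binding members is shown because these 3 genes are alike in this stretch while 1 rose, 1 fell and 1 was not called. It lies at chr7:28378158-28378217 in Zfp36, chr12:80110189-80110248 in Zfp36l1 and chr17:84186668-84186727 in Zfp36l2, all on the minus strand, and capitals mark the codons of the 3 cysteines and the histidine.
Zfp36: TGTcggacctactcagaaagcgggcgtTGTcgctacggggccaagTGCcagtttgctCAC
Zfp36l1: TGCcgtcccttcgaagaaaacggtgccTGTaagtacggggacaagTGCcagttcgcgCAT
Zfp36l2: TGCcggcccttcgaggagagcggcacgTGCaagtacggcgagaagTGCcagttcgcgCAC
Of these 60 bases, Zfp36l1 and Zfp36l2 share 49 (81.7%), Zfp36 and Zfp36l1 share 42 (70%), and Zfp36 and Zfp36l2 share 40 (66.7%).

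The part of the KRAB domain by which these genes were recognised is shown for 3 members that rose with C1q and for Zfp57, the KRAB gene that fell. It lies at chr2:150411236-150411280 in Zfp442, chr17:32777426-32777470 in Zfp871 and chr11:50817834-50817878 in Zfp354c, on the minus strand, and at chr17:37006125-37006169 in Zfp57, on the plus strand. Capitals mark the codons of the residues fixed in the pattern.
Zfp442: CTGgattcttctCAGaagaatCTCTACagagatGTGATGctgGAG
Zfp871: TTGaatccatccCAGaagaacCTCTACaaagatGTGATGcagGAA
Zfp354c: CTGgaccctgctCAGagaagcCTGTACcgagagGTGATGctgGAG
Zfp57: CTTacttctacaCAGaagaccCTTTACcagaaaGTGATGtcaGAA
Over these 45 bases Zfp442 and Zfp871 are identical at 80%, and Zfp57 is identical to Zfp442 at 62.2%, to Zfp871 at 64.4% and to Zfp354c at 57.8%.

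A single C2H2 finger with the linker that follows it is shown for 2 of the same members and for Zfp445, to make visible the unit whose number per protein is compared further on. It lies at chr2:150409267-150409344 in Zfp442, chr11:50815512-50815589 in Zfp354c and chr9:122852892-122852969 in Zfp445, all on the minus strand. Capitals mark the codons of the cysteines and histidines.
Zfp442: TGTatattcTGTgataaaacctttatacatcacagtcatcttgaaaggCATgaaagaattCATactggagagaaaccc
Zfp354c: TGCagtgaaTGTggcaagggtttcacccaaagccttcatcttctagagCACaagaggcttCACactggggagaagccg
Zfp445: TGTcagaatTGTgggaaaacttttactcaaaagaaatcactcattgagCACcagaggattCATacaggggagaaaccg

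More Zfp genes were higher with C1q than lower. Of the 284 members, 102 (35.9%) rose and 10 (3.52%) fell at a limma-trend adjusted p below 0.05, and 172 were not called. Among all genes tested 19.7% rose and 18.7% fell, and over the 6689 other genes with a mean of at least 100 and a longest transcript of 2348 to 6867 bases, here called genes of like length, 27.2% rose and 18.8% fell. These genes were more abundant than the members, with a median level of 803 against 308 normalised reads. Of the 3946 among them with a mean of 123 to 1121, the 10th to 90th percentile of the members, 26.2% rose and 16.9% fell, with a median level of 461. The members' share that rose was above these shares and the share that fell below them, a comparison of counts with no test over the list. The differences were small: the median log2 fold change of the members was 0.24 (1.18-fold), with a range from -0.83 to 1.16, against 0.062 in genes of like length, 0.072 in those also limited in level and 0.029 in all genes. A log2 fold change above 0 was found in 212 members (74.6%), against 56.3% of genes of like length and 52.1% of all genes. Just 6 members were called with a log2 fold change of at least 1, which 5.19% of all genes reached.

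The members' shift was visible in each library. Members held 0.613%, 0.612% and 0.624% of the reads in controls 1 to 3, and 0.757%, 0.735% and 0.760% in C1q libraries 1 to 3. These shares did not overlap between the groups. All 3 C1q libraries lay above all 3 controls for 153 members (53.9%), against 26.8% of all genes, 34.7% of genes of like length and 34.1% of those also limited in level. All 3 lay below for 26 members (9.15%), against 25.4% of all genes, 25% of genes of like length and 23% of those also limited in level. Leaving out any C1q library left 4 members called lower, and leaving out control replicate 2 left 6. Among the 370 Zfp genes without the limit on the mean, 122 rose and 11 fell. Among the 270 members with a mean of at least 100 in both groups 92 (34.1%) rose and 10 (3.70%) fell. All 3 C1q libraries lay above all 3 controls for 141 (52.2%) of these 270.

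**Figure D1:**
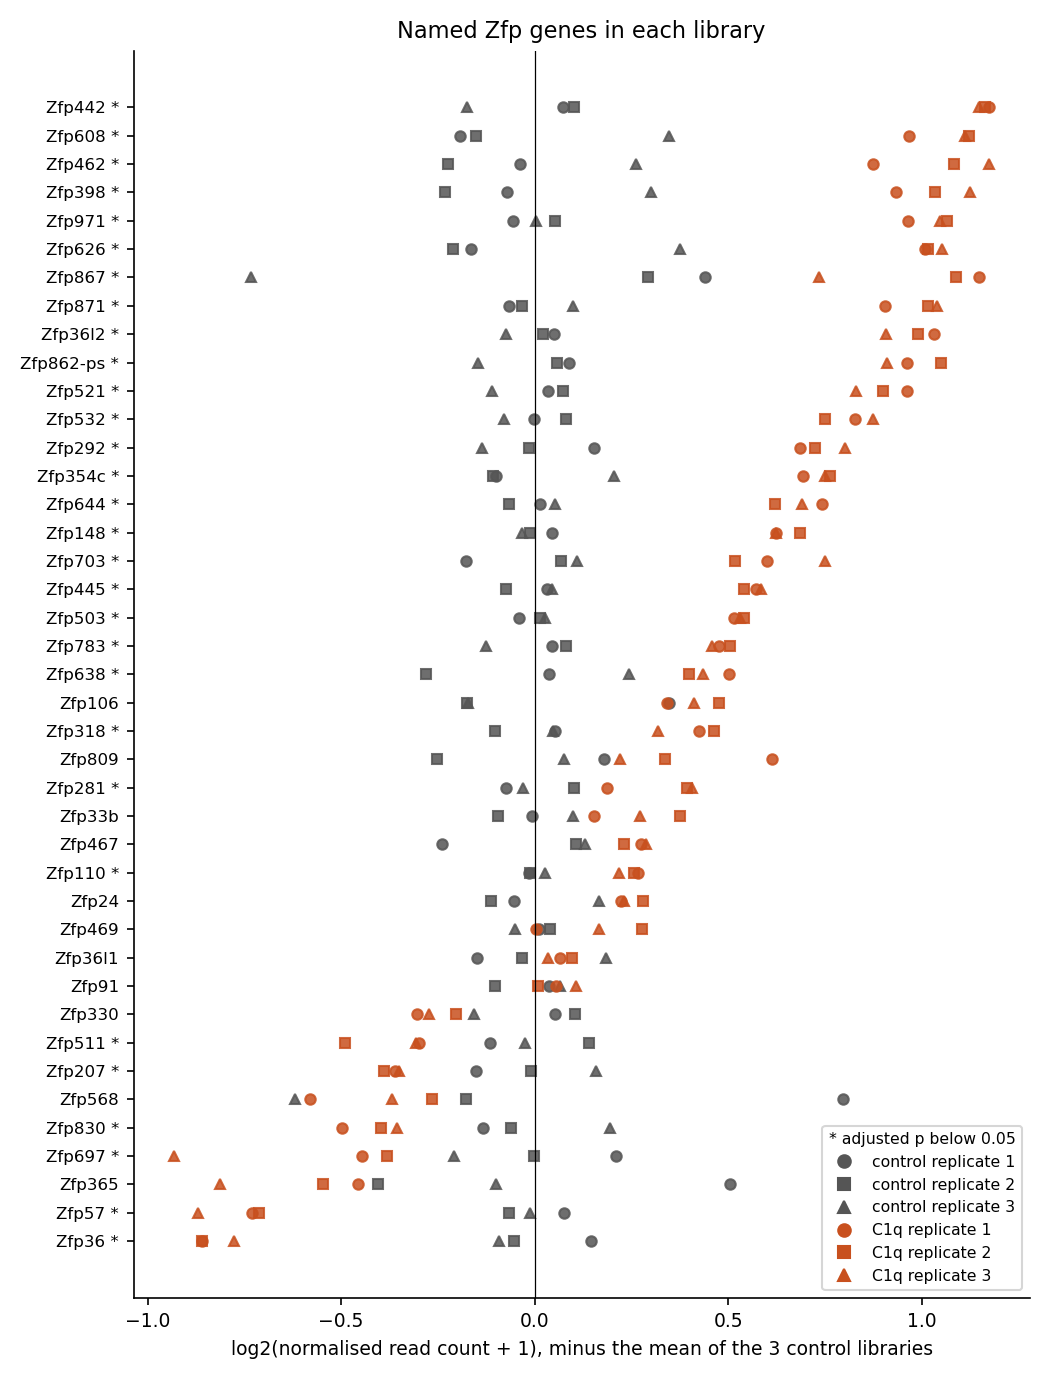
The named Zfp genes, 1 per line, with the log2(normalised read count + 1) of each library minus the mean of the 3 control libraries on the horizontal axis (grey controls, orange C1q, marker shape for the replicate). The genes are ordered by fold change from Zfp442 at the top (1.16) to Zfp36 at the bottom (-0.83), and Zfp568 and Zfp365 show 1 control library far above the other two.

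The RNA-binding CCCH genes are treated first: 1 rose, 1 fell and 1 was not called. Zfp36l2 (chr17:84183924-84187947) had 5020, 4924 and 4608 normalised reads in controls 1 to 3 and 9912, 9634 and 9099 in C1q libraries 1 to 3, the order used for every gene. Every C1q library was far above every control, with a log2 fold change of 0.98 ± 0.070 (SE, 1.97-fold, limma-trend adjusted p = 0.000196). Zfp36 (chr7:28376784-28379228), which encodes tristetraprolin, a feedback inhibitor of inflammatory mRNAs, had 1328, 1156 and 1127 normalised reads in the controls and 662, 661 and 700 with C1q. It was the member that fell most, by 0.83 ± 0.082 on the log2 scale (1.78-fold lower, adjusted p = 0.000408 in limma-trend), and the groups did not overlap. Zfp36l1 (chr12:80107760-80113013) had 4377, 4746 and 5514 normalised reads in the controls and 5086, 5191 and 4973 with C1q. All 3 of its C1q values lay within the range of its controls, and the log2 fold change of 0.066 ± 0.092 was not called (adjusted p = 0.609).

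Per kilobase of transcript, Zfp36l1 and Zfp36l2 had the highest control levels of all members with a known length. The level was 1632 normalised reads per kilobase for Zfp36l1, 1374 for Zfp36l2 and 431 for Zfp36 in the controls. With C1q it was 1700, 2705 and 242, so that Zfp36l2 stood above Zfp36l1. The calls for Zfp36 and Zfp36l2 held in all 6 fits that left out a library, with log2 fold changes from -0.88 to -0.76 and from 0.94 to 1.01. All 3 genes overlap an exon of a gene on the other strand, and Zfp36l1 shares 56.9% of its 50-base words with such a gene, Gm26669. The strand setting of the read counting is not given, so reads of overlapping genes cannot be told apart.

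**Figure D2:**
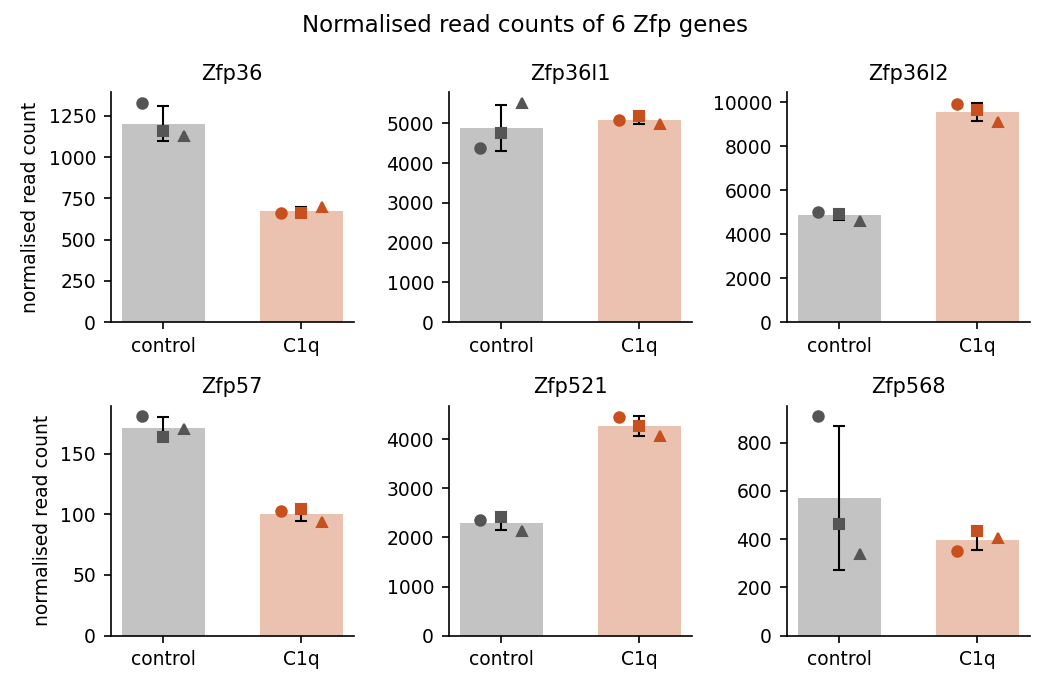
Normalised read counts of 6 Zfp genes in the 3 control and 3 C1q libraries. Bars are means, error bars are the SD over 3 libraries, and points are libraries (circle, square and triangle for replicates 1, 2 and 3). Zfp36 and Zfp57 are lower with C1q, Zfp36l2 and Zfp521 are higher, Zfp36l1 overlaps, and control replicate 1 of Zfp568 stands at 908 against 340 and 462.

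More KRAB genes rose than fell. A KRAB pattern was found in the protein of 141 members, of which 52 (36.9%) rose and 1 (0.709%) fell, and 88 were not called, against 19.7% and 18.7% of all genes and 27.2% and 18.8% of genes of like length. Their median log2 fold change was 0.30 (1.23-fold), and 116 of the 141 had a value above 0. These KRAB counts include members, such as Zfp442, that reached the limit on the mean only through their C1q libraries. The KRAB members held 0.164%, 0.165% and 0.170% of the reads in the controls and 0.211%, 0.203% and 0.208% with C1q, with no overlap between the groups. Leaving out C1q replicate 1, 2 or 3 lowered the number called higher to 29, 33 and 31. Genes of like length were also called higher less often in these fits. The share of KRAB members called higher was then only slightly above theirs, against 36.9% and 27.2% with all libraries.

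Zfp442 (chr2:150402480-150451501) had the highest fold change of all members. It had 65.8, 67.2 and 55.3 normalised reads in the controls and 142, 141 and 140 with C1q. The groups lay far apart, with a log2 fold change of 1.16 ± 0.15 (SE, 2.24-fold) and a limma-trend adjusted p of 0.00107. The gene shares 32.3% of its 50-base words with others, most with its relative Zfp937, so part of its reads could belong to copies. It entered the set through its C1q libraries, since its control mean was 62.8.

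Zfp871 (chr17:32765496-32788287) was a more abundant KRAB gene with a like response. It had 950, 974 and 1067 normalised reads in the controls and 1865, 2014 and 2047 with C1q. The log2 fold change was 0.99 ± 0.073 (1.98-fold, limma-trend adjusted p = 0.000196) with no overlap. Zfp354c (chr11:50811085-50827731) had 970, 965 and 1199 normalised reads in the controls and 1682, 1764 and 1750 with C1q, a log2 fold change of 0.74 ± 0.095 (adjusted p = 0.000994 in limma-trend). Its groups did not overlap either, although control replicate 3 was the highest of its controls.

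Zfp971 (69.3, 74.9 and 72.3 in the controls, 142, 152 and 150 with C1q), Zfp398 (95.0, 84.9 and 123 against 192, 206 and 219) and Zfp626 (67.0, 64.9 and 97.8 against 152, 153 and 157) rose by 1.03, 1.03 and 1.02 on the log2 scale. They are KRAB genes of low level, and Zfp971 and Zfp626, with control means of 72.2 and 76.5, entered the set through their C1q libraries. Zfp398 was at 0.53 with the length trend removed, and Zfp971 shares 42.4% of its words with other genes. Zfp867, with 164, 148 and 72.3 normalised reads in the controls and 269, 258 and 202 with C1q, rose by 0.99 ± 0.30 (limma-trend adjusted p = 0.0359), but its call was lost without C1q replicate 1, 2 or 3 (adjusted p = 0.112, 0.106 and 0.0567).

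The members known for guarding imprinted loci went in different directions. Zfp57 (chr17:37001163-37010729), which binds methylated imprinting control regions and keeps their methylation, had 181, 164 and 170 normalised reads in the controls and 103, 104 and 93.4 with C1q. All C1q libraries were below all controls, and the gene fell by 0.77 ± 0.13 on the log2 scale (1.71-fold lower, limma-trend adjusted p = 0.00285). Zfp445 (chr9:122848910-122886851), which shares this role, had 1087, 1010 and 1097 normalised reads in the controls and 1582, 1548 and 1597 with C1q. It rose by 0.57 ± 0.063 (1.48-fold, adjusted p = 0.000589) with no overlap, and by 0.21 with the length trend removed. Both calls held in each of the 6 fits without a library.

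Zfp568 (chr7:29983955-30028282), a KRAB repressor of a placental Igf2 promoter, was read at 908, 462 and 340 normalised reads in the controls and 349, 435 and 405 with C1q. Control replicate 1 was far above every other library and the C1q values lay among the remaining controls, with a log2 fold change of -0.40 ± 0.32 that was not called (limma-trend adjusted p = 0.359). Over the controls its values stood in the same order as the summed muscle fibre and myoblast markers, and the part of these cells was not tested. Zfp809 (chr9:22225667-22254117), which silences retroviral DNA in embryonic cells, had 347, 257 and 323 normalised reads in the controls and 470, 388 and 358 with C1q. All its C1q libraries were above its controls, but by a log2 fold change of 0.39 ± 0.15 that was not called (adjusted p = 0.0751, and 0.0352 with the replicate block). Zfp110, whose protein binds a neurotrophin receptor, rose by 0.25 ± 0.061 (adjusted p = 0.0157), a call lost without C1q replicate 1, 2 or 3 (0.0659, 0.0645 and 0.0520).

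C2H2 genes without a KRAB pattern had a smaller median change. Of these 131 members, 45 (34.4%) rose and 8 (6.11%) fell. Among genes of like length 27.2% rose and 18.8% fell, and among all genes 19.7% and 18.7%. The 131 members had a median log2 fold change of 0.16 (1.11-fold), and 87 of them had a value above 0. The difference between them and the KRAB members was not tested, and the classes differ in other ways: the median transcript was 3544 bases in KRAB members and 4143 in the others, the median GC content was 43.8% and 51.0%, and the median of the normalised read count was 220 and 544.

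Zfp521, a cofactor known to hold mesenchymal progenitors back from the fat lineage, had 2345, 2408 and 2121 normalised reads in the controls and 4460, 4270 and 4067 with C1q. The groups lay far apart, at a log2 fold change of 0.90 ± 0.073 (1.86-fold, limma-trend adjusted p = 0.000245). Zfp467, which favours fat over bone in marrow stroma, had 336, 427 and 434 normalised reads in the controls and 480, 465 and 484 with C1q. Its C1q libraries all lay above its controls, but the log2 fold change of 0.27 ± 0.11 was not called (adjusted p = 0.106 in limma-trend). The summed FAP markers, mostly reads of Col1a1 and Col3a1, were also higher and the summed muscle markers lower in the C1q libraries. The tenocyte markers were mixed, and the part of these cells in the values of Zfp521 was not tested.

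The C2H2 genes with the largest rises were Zfp608 and Zfp462. Zfp462 (chr4:54944491-55083563), with 33 fingers by the pattern and known for a role in heterochromatin and pluripotency, had 421, 370 and 519 normalised reads in the controls and 793, 917 and 976 with C1q. It rose by 1.04 ± 0.14 (2.06-fold, limma-trend adjusted p = 0.00112), and by 0.46 with the length trend removed. Zfp608 had 461, 475 and 672 normalised reads in the controls and 1033, 1150 and 1142 with C1q, a rise of 1.07 ± 0.15 (adjusted p = 0.00126). In both genes control replicate 3 was the highest control and still below every C1q library.

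Zfp532 rose by 0.82 ± 0.076, Zfp292 by 0.74 ± 0.088, Zfp644, a partner of a histone methyltransferase, by 0.68 ± 0.071, and Zfp148, which binds GC-rich promoters, by 0.64 ± 0.059 on the log2 scale. With the length trend removed these values were 0.42, 0.17, 0.33 and 0.082. Zfp148 had 1350, 1298 and 1280 normalised reads in the controls and 2016, 2104 and 2018 with C1q, so the replicates were close and the groups far apart. Zfp318 rose by 0.40 ± 0.079 (limma-trend adjusted p = 0.00592). Zfp532 shares 36.7% of its words with a gene on the other strand, and Zfp608 overlaps one.

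Some calls among the C2H2 genes were near the threshold and were lost with fewer libraries. Zfp281, a pluripotency regulator, rose by 0.33 ± 0.087 (limma-trend adjusted p = 0.0203), a call lost without C1q replicate 2 or 3 or control replicate 1 (0.0809, 0.0838 and 0.0635), with log2 fold changes of 0.29 to 0.30 in those fits. Zfp638, an RNA-binding protein known from fat cell differentiation, rose by 0.45 ± 0.13 (adjusted p = 0.0267), a call lost without C1q replicate 1, 2 or 3 or control replicate 1 (0.0877, 0.0640, 0.0729 and 0.0565), with log2 fold changes of 0.42 to 0.47 there. Zfp106, an RNA-binding protein of muscle and motor neurons, was read at 6261, 4358 and 4370 normalised reads in the controls and 6243, 6846 and 6546 with C1q. Its groups overlapped through control replicate 1, and the adjusted p in limma-trend was 0.0545 with that library, 0.00254 without it and 0.0468 with the replicate block. Zfp24, a regulator of myelination, had a log2 fold change of 0.24 ± 0.091 that was not called (adjusted p = 0.0699, and 0.0100 without control replicate 3). Zfp91, a ubiquitin ligase, had 1853, 1684 and 1892 normalised reads in the controls and 1877, 1818 and 1946 with C1q, an overlap with a log2 fold change of 0.057 (adjusted p = 0.556).

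Besides Zfp57 and Zfp36, 8 members fell. They were Zfp553, Zfp358, Zfp771, Zfp622, Zfp511, Zfp207, Zfp830 and Zfp697, all C2H2 genes without a KRAB pattern. Zfp207 (chr11:80383279-80408561), a spindle protein, had 2630, 2901 and 3261 normalised reads in the controls and 2274, 2227 and 2289 with C1q. It fell by 0.37 ± 0.085 on the log2 scale (limma-trend adjusted p = 0.0119) and the groups did not overlap. Zfp622, a ribosome maturation factor that was picked out here after its values were seen, had 1292, 1209 and 1267 normalised reads in the controls and 979, 956 and 1071 with C1q, a fall of 0.33 ± 0.071 (adjusted p = 0.00885).

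Other falls were less secure. Zfp830, a splicing factor, fell by 0.42 ± 0.11 (limma-trend adjusted p = 0.0235), a call lost without C1q replicate 1, 2 or 3 (0.0861, 0.0672 and 0.0576). Zfp697 fell by 0.59 ± 0.19 (adjusted p = 0.0445), a call lost without C1q replicate 1, 2 or 3 or control replicate 1 or 2 (0.0744, 0.0571, 0.132, 0.128 and 0.0937). Zfp511, which overlaps Tubgcp2 on the other strand, fell by 0.37 ± 0.12 (adjusted p = 0.0437), a call lost without C1q replicate 1, 2 or 3 or control replicate 2 or 3 (0.0860, 0.148, 0.0935, 0.112 and 0.0511) and with the replicate block (0.0682).

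Members with neither finger pattern, or with no coding sequence given by the annotation used, were few. Zfp703 (chr8:26977336-26981462) and Zfp503 (chr14:21983959-21989601), related co-repressors, both rose. Zfp503 had 2714, 2814 and 2840 normalised reads in the controls and 3988, 4061 and 4031 with C1q, a log2 fold change of 0.53 ± 0.056 (limma-trend adjusted p = 0.000516), with the replicates of each group close together. Zfp703 had 1249, 1480 and 1522 normalised reads in the controls and 2140, 2022 and 2374 with C1q, a rise of 0.62 ± 0.10 (adjusted p = 0.00228).

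Zfp365, a centrosomal protein, was read at 1048, 557 and 689 normalised reads in the controls and 538, 505 and 420 with C1q. Its C1q libraries all lay below its controls, control replicate 1 was again the highest, and the log2 fold change of -0.60 ± 0.22 was not called (limma-trend adjusted p = 0.0643, 0.0216 without control replicate 2 and 0.021 with the replicate block). Zfp330, a nucleolar protein, had a log2 fold change of -0.26 ± 0.094 that was not called (adjusted p = 0.0629, and 0.0123 without control replicate 3), and Zfp839 is the remaining member of this class. For 4 members no coding sequence could be matched in the annotation, which does not show that a gene has none. Of these 4, Zfp862-ps had 340, 334 and 289 normalised reads in the controls and 625, 664 and 602 with C1q. It rose by 0.97 ± 0.095 (limma-trend adjusted p = 0.000383), and by 0.63 with the length trend removed. Zfp783 rose by 0.48 ± 0.12 (adjusted p = 0.0177), a call lost without C1q replicate 1, 2 or 3 (0.0634, 0.0693 and 0.0631), and Zfp33b and Zfp469 were not called (0.154 and 0.210).

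**Figure D3:**
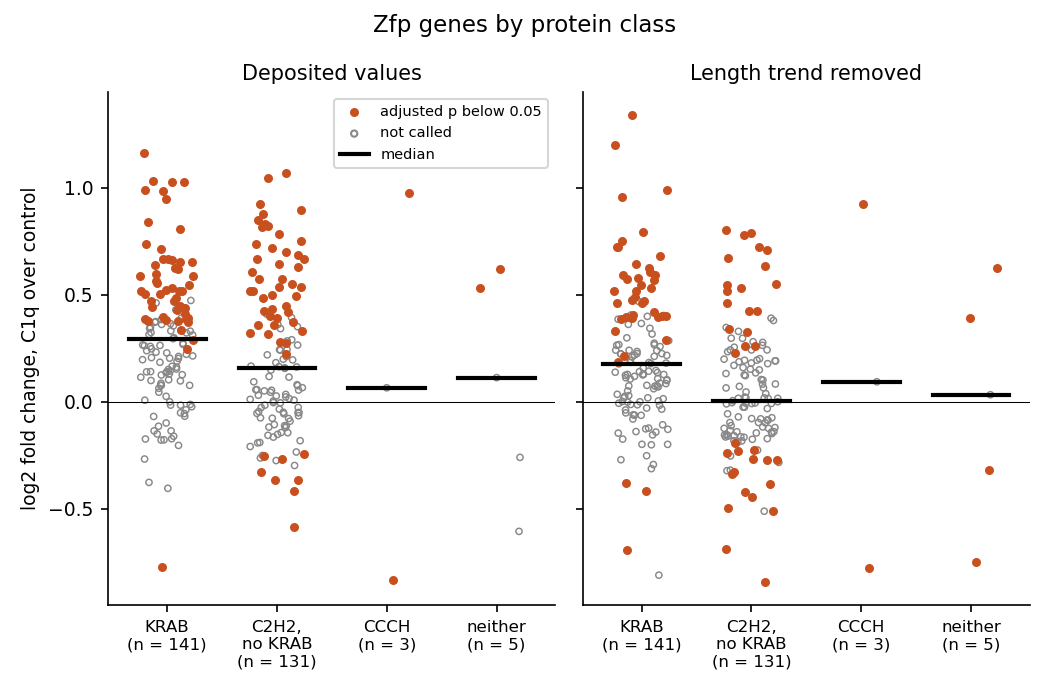
The log2 fold change of each Zfp gene by protein class, from the deposited values (left) and after the trend on transcript length was removed in each library (right). Filled points have an adjusted p below 0.05 and bars are medians, which are 0.30 and 0.18 for KRAB genes and 0.16 and 0.0055 for C2H2 genes without KRAB.

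Fold change ran with transcript length in these libraries, for Zfp genes and for others. Across genes, which are not independent and share the libraries, Spearman's rho between fold change and transcript length was 0.40 over 281 members, 0.34 over KRAB members, 0.54 over the C2H2 members without KRAB and 0.52 over 10472 other genes with a mean of at least 100. Of the 53 members with transcripts of at least 6000 bases, 36 (67.9%) rose and 0 fell by limma-trend, against 58.4% and 5.68% of other genes of that length and a mean of at least 100. Of the 75 members of 3000 to 4000 bases, 30.7% rose and 2.67% fell, against 19.5% and 22.1% of other genes. Of the 63 members of 2000 to 3000 bases, 14.3% rose and 4.76% fell, against 11.6% and 33.5%. The members' share of falls was thus lower than that of other genes in each of these 3 length ranges.

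**Figure D4:**
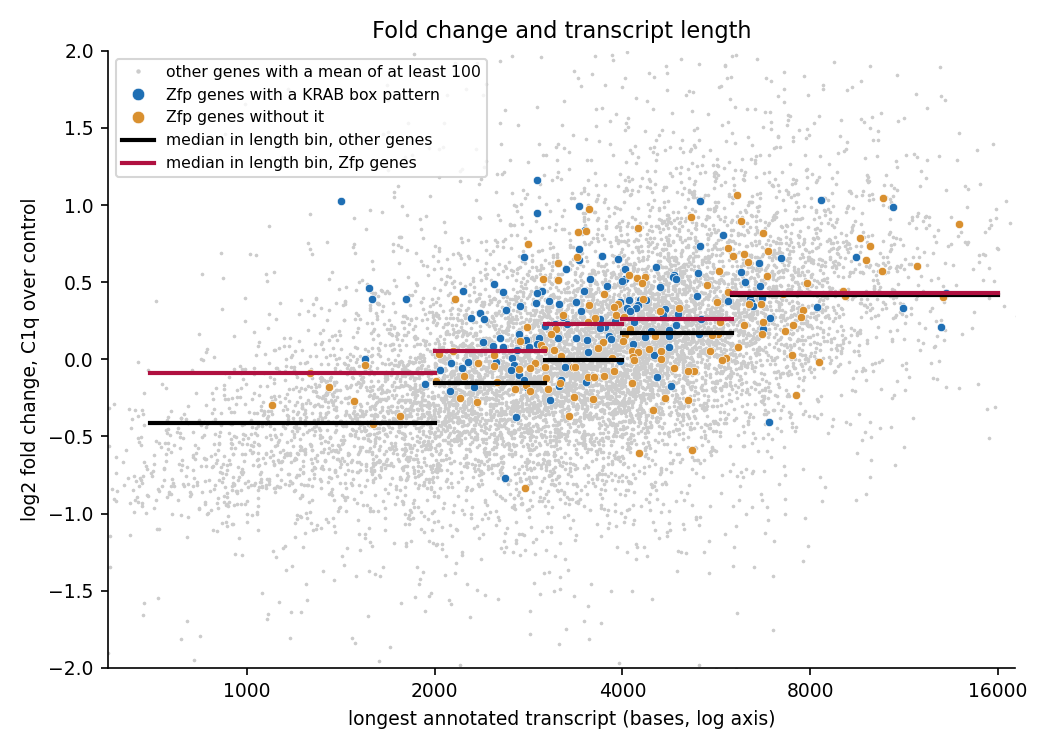
Log2 fold change against the length of the longest annotated transcript (log axis) for Zfp genes with a KRAB pattern (blue), Zfp genes without it (orange) and other genes with a mean of at least 100 (grey; those beyond the axis limits are not drawn). Horizontal lines are medians per length range, which for 3000 to 4000 bases are 0.23 in Zfp genes and -0.0048 in other genes and from 6000 bases are 0.43 and 0.42.

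Removing a smooth trend on transcript length from each library made the members' shift smaller. With it removed, 61 of 281 members (21.7%) were called higher and 22 (7.83%) lower, with a median log2 fold change of 0.11. Of the 267 members with a length and a mean of at least 100 in both groups, 52 (19.5%) were higher and 22 (8.24%) lower. The median of these 267 was 0.087. Over all genes with a length 14.6% were then higher and 18.7% lower, over genes of like length 17.3% and 24.9% with a median of -0.050, and over those also limited in level 17.3% and 21.3% with a median of -0.032. Leaving out a library as well gave 24, 31 and 25 members higher without C1q replicates 1, 2 and 3, and 33, 41 and 76 without control replicates 1, 2 and 3. The KRAB members kept a median of 0.18, with 38 (27.0%) higher and 3 (2.13%) lower. That of the C2H2 members without KRAB was 0.0055, with 19 (14.5%) higher and 16 (12.2%) lower. Their share of rises was thus close to that of all genes and below that of genes of like length. Removing a trend on GC content after the one on length left 49 of 281 members called higher and 19 called lower, and their median was 0.069. Of the 141 KRAB members, 25 were called higher and 3 lower. The same fit called 1147 of 6689 genes of like length higher and 1657 lower (median -0.048). Of the 3946 also limited in level it called 682 higher and 820 lower (median -0.030). Over all genes with a length the shares were 14.4% and 18.7%. In this fit the share of rises in all members and in KRAB members was close to that of genes of like length. The share of falls stayed below it.

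In 57 of 281 members the call was higher both with and without the length trend. This was so in 48 of the 267 members with a length and a mean of at least 100 in both groups. The same held for 1117 of 6689 genes of like length and 1872 of 14933 genes with a length. Among the 57 members were Zfp442 (1.20 with the trend removed), Zfp971 (1.34), Zfp36l2 (0.92), Zfp703 (0.62), Zfp521 (0.54), Zfp354c (0.46) and Zfp871 (0.40). Of these, Zfp442 and Zfp971 had reached the limit on the mean only through their C1q libraries. Zfp57 (-0.69) and Zfp36 (-0.78) were among the 6 members that were lower in both. Lower in both were 1167 of the 6689 genes of like length and 2015 of the 14933 genes. Zfp148 (0.082, adjusted p = 0.329 in limma-trend) and Zfp292 (0.17, adjusted p = 0.168) were no longer called, nor were Zfp281 (0.10), Zfp511 (-0.15) and Zfp830 (-0.16). The values of Zfp318, Zfp638, Zfp106 and Zfp24, genes with transcripts of 13060, 9033, 9085 and 5732 bases, turned to -0.23, -0.086, -0.12 and -0.070. Zfp516 and Zfp865, named for this reason after their values were seen, were called higher with the trend and lower without it.

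Members with the most fingers rose more often than the others. Of the 54 members with at least 15 fingers, 30 (55.6%) rose and 0 fell by limma-trend, with a median log2 fold change of 0.38, against 19.7% and 18.7% of all genes. The share that rose was 33% of 100 members with 10 to 14 fingers, 28.4% of 81 with 5 to 9 and 29.7% of 37 with 1 to 4, so it was much alike below 15 fingers. The medians of these groups were 0.24, 0.16 and 0.054. With the length trend removed the medians were 0.23 from 15 fingers up and 0.13, 0.070 and -0.074 below. The groups also differed in class, since 35 of the 54 members with at least 15 fingers were KRAB genes and 2 of the 37 with 1 to 4, and the parts of finger number, class and length were not tested against each other.

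Many members lie in clusters of neighbouring genes. With starts within 250 kb taken as neighbours (GRCm38), 157 members lay in 35 clusters of at least 2, and 108 of them were KRAB genes. Chromosome 7 held 68 members, chromosome 17 held 37 and chromosome 13 held 22. In clusters 52 of 157 (33.1%) rose and 2 (1.27%) fell, and outside them 50 of 127 (39.4%) rose and 8 (6.30%) fell. Among genes of like length 27.2% rose and 18.8% fell, and among all genes 19.7% and 18.7%. The medians in and outside clusters were 0.23 and 0.25 (0.13 and 0.065 with the length trend removed).

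The clusters differed from each other. The 9 members at chr17:32765496-33358896, among them Zfp871, all had a log2 fold change above 0, 5 of them rose, and their median was 0.52 (0.33 with the length trend removed). The 5 at chr7:27731409-27979336, among them Zfp626, had a median of 0.65 (0.54 with the trend removed) and 4 rose. The 15 KRAB genes at chr13:67121659-67827000 had a median of 0.37 and 8 rose (0.22 and 4 with the trend removed). The largest cluster, 17 KRAB genes at chr17:21383707-22456689, had a median of 0.22 and 3 rose (0.18 and 3 with the trend removed). The 7 members at chr7:127233061-127615785 went the other way: 2 fell, none rose, 6 had a value below 0 and the median was -0.099. With the length trend removed the median of these 7 was -0.038 and 2 were lower. Among clusters of at least 5, removing the trend turned the sign of the median at chr9:20345136-20605404 (0.33 to -0.13). It also turned at chr6:47835633-48086986 (0.16 to -0.053) and chr7:4915181-5053723 (-0.068 to 0.098). Neighbouring members share sequence, and these clusters were picked out after their values were seen.

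**Figure D5:**
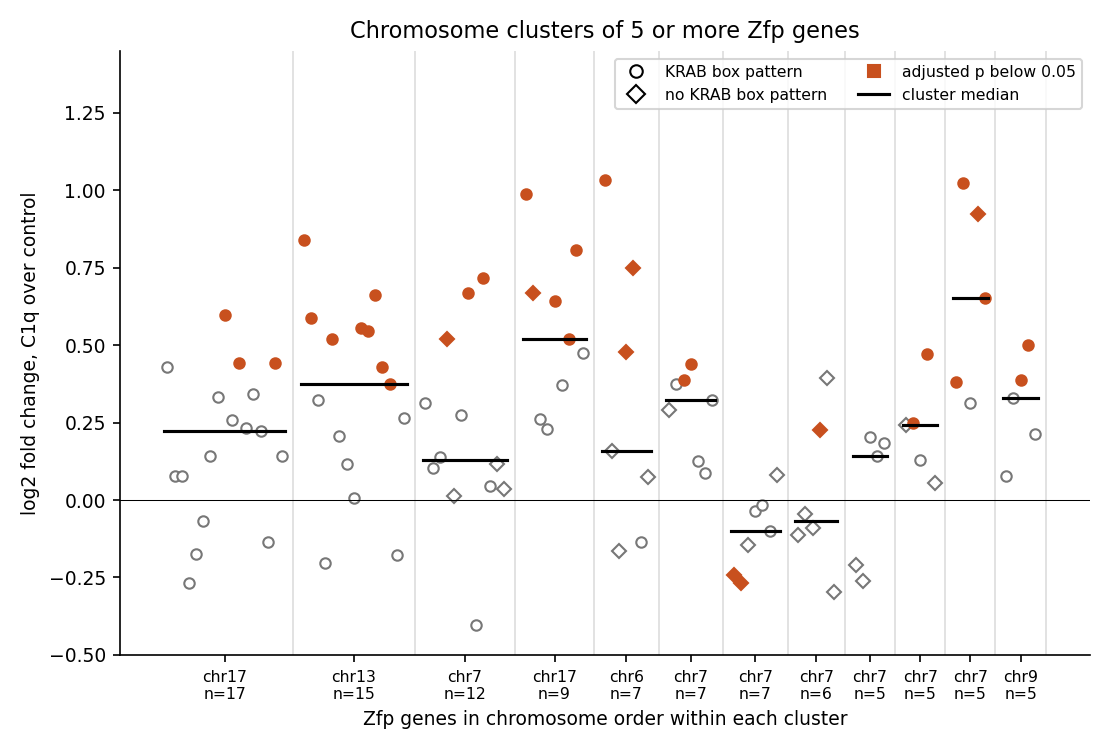
Log2 fold change of the 100 members in the 12 chromosome clusters of at least 5, in chromosome order within each cluster. Circles are KRAB genes, diamonds are other members, filled points have an adjusted p below 0.05 and bars are cluster medians, which run from -0.099 to 0.65.

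The partners through which KRAB proteins silence their targets were called about as often as all genes in the main fit. Of 33 genes of the KAP1 pathway, listed with earlier results known, 7 (21.2%) rose and 6 (18.2%) fell by limma-trend, against 19.7% and 18.7% of all genes. The list is abundant, with a median level of 1532, and of other genes with a mean of at least 100, 25.4% rose and 26.2% fell. Its median log2 fold change was -0.092, against 0.029 in all genes. With the length trend removed 3 (9.09%) were higher and 9 (27.3%) lower, against 14.6% and 18.7% of all genes and 17.3% and 24.9% of genes of like length. Trim28, the KAP1 gene, had 6323, 6556 and 6615 normalised reads in the controls and 5822, 5687 and 5617 with C1q. Its groups did not overlap, and the log2 fold change of -0.19 ± 0.061 passed the threshold narrowly (adjusted p = 0.0441). That call was lost with the replicate block (adjusted p = 0.0652) and without C1q replicate 1, 2 or 3 (0.1004, 0.129 and 0.148) or control replicate 1, 2 or 3 (0.0616, 0.0708 and 0.0708). Setdb1, the histone methyltransferase that KAP1 recruits, had 843, 778 and 816 normalised reads in the controls and 905, 880 and 886 with C1q, a log2 fold change of 0.13 ± 0.065 that was not called (adjusted p = 0.150) and that was -0.17 with the length trend removed.

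Tasor and Mphosph8, subunits of the HUSH silencing complex, went in opposite directions. Mphosph8 was picked out here after its values were seen. Tasor had 434, 426 and 463 normalised reads in the controls and 986, 1004 and 974 with C1q, a rise of 1.16 ± 0.070 (2.24-fold, limma-trend adjusted p = 0.000148; 0.71 with the length trend removed). Mphosph8, which binds methylated histone in the same complex, had 1106, 914 and 901 normalised reads in the controls and 562, 458 and 525 with C1q. It fell by 0.92 ± 0.11 (adjusted p = 0.000834). Pphln1, a further subunit of the complex, had a log2 fold change of 0.085 ± 0.070 that was not called (limma-trend adjusted p = 0.379). Among the other genes, Atf7ip, which stabilises Setdb1, rose by 0.70 ± 0.080 (adjusted p = 0.000640), and by 0.22 with the length trend removed. The NuRD subunits Gatad2b and Mbd3 rose by 1.05 ± 0.12 and fell by 0.53 ± 0.055 (adjusted p = 0.000726 and 0.000483), and their values were 0.60 and -0.30 with the length trend removed. Leaving out C1q replicate 1, C1q replicate 3 or control replicate 1 left 3 genes of the list called lower.

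Promoters of KRAB and other members differed in base composition, a feature the choice of members did not use. RefSeq windows from 250 bases before to 50 after the start were found for 232 of 284 members. The median number of CpG dinucleotides per window was 10 for KRAB members, 21 for members without KRAB and 21 for other genes with a mean of at least 100. The letters CCAAT, on either strand, were in 51.4% of the windows of KRAB members, 39.9% of the others, 37.1% of other genes with a mean of at least 100 and 37.4% of all promoters of that table. GGGCGG was in 38.4%, 58.7%, 64.6% and 35.7%, so both kinds of member were below the other genes with a mean of at least 100. In windows of members called higher CCAAT was in 44.7%, and in those of members not called in 47.1%. A match describes the letters alone.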

How the data were processed

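RNA-seq of 6 libraries, 3 per group, was used. The deposited table is a signal, read counts per Entrez gene that the authors divided by a size factor per library. The submitters' processing notes name build mm10 and the tools Trimmomatic, HISAT2, featureCounts and DESeq2. Their versions and the strand setting were not given in the sources used here. All values (100%) were whole multiples of 1 read within 0.001 of a read, 1 read being worth 4.25 units in control replicate 3 and 0.583 to 0.975 elsewhere. Control replicate 3 is therefore the least precise for low genes.

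Differences were tested with limma-trend (limma 3.58.1, R 4.3.3) on log2(value + 1) over all 16671 genes, with Benjamini-Hochberg adjustment over all of them and a threshold of 0.05. Fold changes are on that scale, which understates low genes, and ± is the SE. Whether each replicate was its own mouse or culture is not stated in the labels, and the p-values therefore reflect only how these samples varied, possibly for technical reasons. The test was also run on simulated counts, drawn gene by gene with a fixed spread and without a length trend or mixed cells. That run cannot show how the length trend or other cells affect the calls here.

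Symbols and coordinates came from RefSeq (GRCm38.p6, 16077 IDs with a symbol), and transcript length, GC content and coding sequence from GENCODE of the same assembly (14933 IDs, 89.6%). Classes came from patterns in the translated coding sequence: C2H2, KRAB or CCCH. Overlap with exons of the other strand was found for 74 members, and 43 shared at least 20% of their 50-base words with another gene. In the 184 with neither, 66 rose and 6 fell.

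Length and GC trends were removed per library by loess (span 0.5, genes with a mean of at least 20). As a check on pairing, deviations from the group means were correlated between same-numbered libraries, which gave 0.123, 0.175 and 0.132, all above the limit of 0.1. The labels name no pairs, and differently numbered libraries were not compared, so pairing is possible but not shown. The main fit is unpaired. The fit with the block served as an alternative, beside edgeR 4.0.16 and DESeq2 1.42.0 on the recovered reads and other settings.

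The members and lists were chosen with earlier results of these data known. Named members were the 10 largest rises and 6 largest falls among those called without overlap, up to 4 with the lowest p per class, 20 genes picked for known roles, and those nearest the limit on the mean. From the KAP1 list the 4 with the lowest p (Tasor, Mbd3, Atf7ip and Gatad2b), Trim28 and Setdb1 were named. Mphosph8 and Pphln1 were added after their values were seen.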

Additional observations from a re-analysis of the deposited data

How the results depend on the processing

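The count of 102 Zfp genes called higher was 102 with the replicate block, which treats same-numbered libraries as pairs. That count was 108 and 113 by edgeR with TMM and RLE scaling, 102 by DESeq2 and 69 to 121 when a library was left out. It was 66 with the GC trend removed, 61 with the length trend removed, 59 with the block and the length trend removed, 65 with every library thinned to 5379209 reads, 49 with length and GC removed and 66 among members with no overlap or shared sequence (the last 2 chosen after seeing the data). The count called lower was 9 with the replicate block, 7 by DESeq2, 4 to 10 when a library was left out, and 16, 22, 21, 6, 19 and 6 in the order of those 6 settings. The median of 0.24 was 0.12 with GC removed, 0.11 with length removed, with or without the block, 0.069 with both removed, 0.26 with array weights, 0.20 with quantile normalisation and 0.19 to 0.26 when a library was left out. For KRAB genes the count called higher was 28 with GC removed, 31 thinned, 25 with length and GC removed and 29 to 60 when a library was left out. Their median was 0.13 with GC removed, 0.18 with length removed, with or without the block, 0.24 with quantile normalisation, 0.10 with length and GC removed and 0.26 to 0.30 when a library was left out. Members without KRAB called higher were 22 with length removed, 23 with the block as well and 23 with length and GC removed. Of the KAP1 list, 3 were higher with length removed, with or without the block. Lower were 9 with length removed, 8 with the block as well, and 3 to 6 when a library was left out. The count of 1819 genes of like length called higher was 1154 with length removed and 1032 in the smaller set limited in level (chosen after seeing the data). It also fell with GC removed, thinned, and with the block and length removed. There the members' share of rises was close to that of genes of like length or slightly above it. The KRAB share was below it with GC removed. With the block alone the count for genes of like length rose while that of the members stayed at 102, so their shares lay closer. The sign turned with length removed (the same with the block) and with length and GC removed for Zfp638 (-0.086 and -0.17), Zfp106 (-0.12 and -0.14), Zfp318 (-0.23 and -0.28), Zfp24 (-0.070 and -0.12), Zfp91 (-0.24 and -0.25, and -0.033 with GC removed alone) and Setdb1 (-0.17 and -0.18), and for Zfp36l1 without control replicate 1 (-0.0093, in a range up to 0.16 when a library was left out). Among named genes the replicate block changed the calls of Zfp106, Zfp809, Zfp365, Zfp511 and Trim28 and no other call. Apart from the smaller sets, fewer reads and fewer libraries that these settings use by construction, the cause was not tested. Control replicate 3, the shallowest library, limits the precision of low genes.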

Other observations

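Other zinc finger families gave values beside those of the Zfp genes. Of the 86 Zfp genes with a mean under 100, 20 rose and 1 fell by limma-trend, with a median log2 fold change of 0.43, on few reads. Of 41 Zbtb genes, which pair C2H2 fingers with a BTB domain, 11 rose and 2 fell, with a median of 0.17 (0.014 with the length trend removed). Of 21 Zkscan and Zscan genes, whose SCAN domain joins proteins in pairs, 6 rose and 0 fell, with a median of 0.24. Of 21 Klf and Sp genes, 7 rose and 1 fell, with a median of 0.23. Of 19 Zc3h genes, which carry CCCH fingers, 9 rose and 3 fell, with a median of 0.23 (0.026 with the length trend removed). Among 15 genes with a KRAB pattern under other symbols and a mean of at least 100, 4 rose and 0 fell, with a median of 0.30 (0.37 with the length trend removed). In the order above the shares that rose were 23.3%, 26.8%, 28.6%, 33.3%, 47.4% and 26.7%. Among all genes tested 19.7% rose and 18.7% fell, and among genes of like length to the members 27.2% and 18.8%. The Zbtb, Zkscan and Zscan, Klf and Sp, and Zc3h genes had no limit on the mean. Their lowest gene means were 4.25, 5.18, 5.67 and 2.45. The differences between the families were not tested.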
